A study of Homo sapiens with 24 samples.

Results

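The 10 genes described here are marker genes of mesenchymal cells and fibroblasts: CDH11, TWIST1, IGFBP7, VIM, LGALS1, FBLN2, FN1, SPARC, TAGLN and ACTA2. They were followed on 24 Affymetrix U133 Plus 2.0 arrays of human embryonic stem cells through every probe set annotated to exactly 1 of these symbols, which gave 27 of the 54675 probe sets (the array names 19775 genes in this way). FN1 had 7 of them, CDH11 4, and IGFBP7, TAGLN and ACTA2 3 each. VIM and SPARC had 2 each, and TWIST1, LGALS1 and FBLN2 had 1 each. The genes were selected with measured values of these arrays known. CDH11, TWIST1, IGFBP7 and VIM were chosen by their difference between feeder-supported and feeder-free culture in DMSO, LGALS1 and FBLN2 by their difference with the inhibitor described next, and SPARC by its level. For FN1, TAGLN and ACTA2 the value that selected them is not recorded.

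The cells were H1, H9 and HSF1, established lines of human embryonic stem cells, with no genetic change named in the labels. Feeder-supported (FS) cultures grow on mouse embryonic fibroblasts (MEFs), and feeder-free (FF) cultures do not. In the inhibitor part of the study, 1 array per line was hybridised for each of 4 groups, which were FS or FF cells kept for 5 days in DMSO or in AZD3965 at 250 nM. AZD3965 blocks MCT1, which moves lactate across the cell membrane. In the medium part, feeder-free H9 and HSF1 cells were kept in unconditioned medium (UM) or in medium conditioned by MEFs (CM), with 3 biological replicates in each of 4 groups. The labels give 5 days for CM and the design text 24 h, so its duration is not settled here. The deposited values are log2 levels from RMA, and 1 log2 unit is a factor of 2. Levels of different probe sets are not comparable, so every difference was taken within 1 probe set. Words such as bright and dim, and mean levels over lists, describe the measured signal only.

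Mesenchymal cells lie singly in a matrix that they secrete, hold to each other through cadherins other than E-cadherin, and carry a vimentin and actin skeleton. Pluripotent stem cells grow as tight epithelial colonies. The change from the epithelial to the mesenchymal state is driven by transcription factors of the TWIST, SNAIL and ZEB families, and accompanies gastrulation and many forms of differentiation. Fibroblasts are the mesenchymal cells that build connective tissue, and MEFs are cells of this kind from the mouse. Among the 10 genes, TWIST1 encodes a transcription factor, CDH11 a cadherin, FN1, FBLN2 and SPARC matrix or matrix-bound glycoproteins, and IGFBP7 and LGALS1 a secreted binding protein and a lectin. VIM, TAGLN and ACTA2 encode vimentin, an actin-binding protein of smooth muscle and an actin of smooth muscle and myofibroblasts.

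On their lead probe sets, CDH11, TWIST1, IGFBP7, VIM and TAGLN were on average several-fold higher on feeders than without them also with the inhibitor. The next brightest CDH11 set differed by 0.29 and was not called. The lead TAGLN set differed by 0.46 in HSF1, and its call was lost without H1. Conditioned medium raised FN1 in both lines and lowered ACTA2 and SPARC in both. The SPARC call in H9 was lost in 4 of 20 alternatives, and its second set was not called in HSF1. IGFBP7 rose more in H9 than in HSF1, and VIM rose in HSF1, where its difference was larger than in H9. LGALS1 and FBLN2 were the members with higher levels in the inhibitor on all 3 lines in both culture systems on their lead probe set, together with FN1, whose values on feeders were higher by 0.11 to 0.20.

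**Figure D1:**
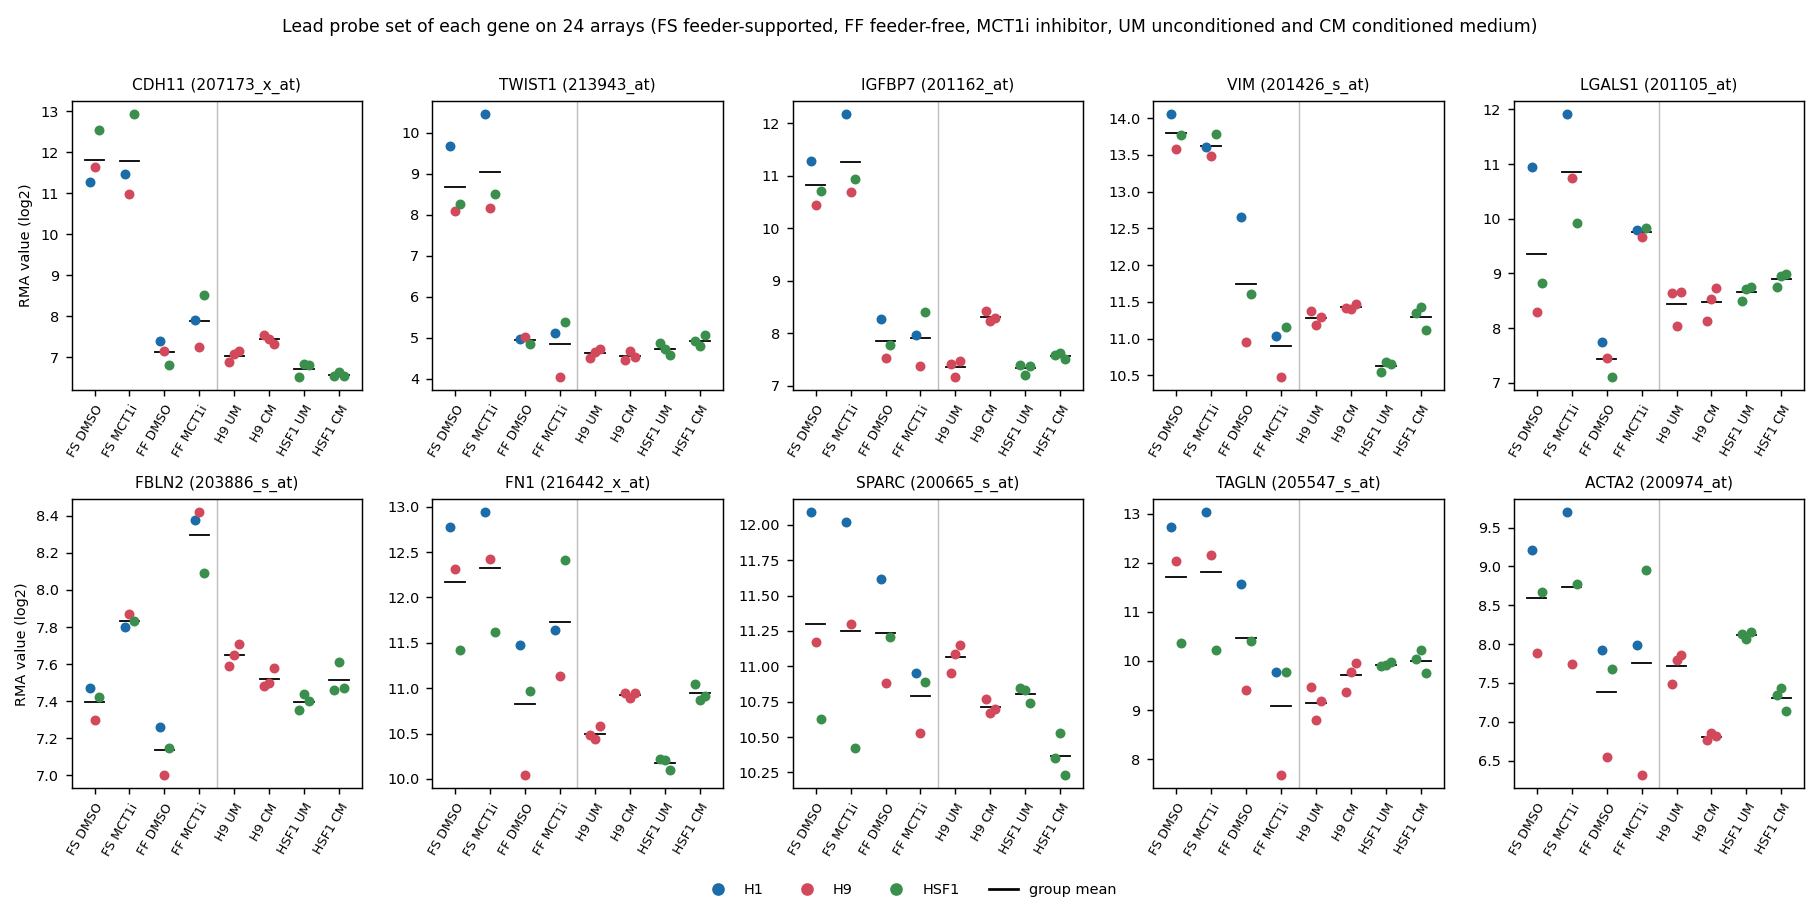
Each panel gives the RMA value (log2, y axis) of 1 gene's lead probe set on each of 24 arrays by group (x axis); points are arrays coloured by cell line and bars are group means. CDH11, TWIST1, IGFBP7 and VIM separate feeder-supported from all other arrays, whereas SPARC does not.

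The promoters of the 4 genes that passed the test with CM in HSF1 on their lead probe set, and for which a sequence was given, are printed to show what lies before their starts. All 5 members with a promoter entry had 7 windows in the RefSeq table (GRCh38.p14). Each line gives the 200 bases before a start site, 5′ to 3′ on the gene's strand, and the capitals mark matches to the motifs named after it. FN1 is chr2:215436069-215436268, - strand, VIM is chr10:17228041-17228240, + strand, SPARC is chr5:151686916-151687115, - strand, and the ACTA2 start shown, one of 2, is chr10:88952774-88952973, - strand.
FN1: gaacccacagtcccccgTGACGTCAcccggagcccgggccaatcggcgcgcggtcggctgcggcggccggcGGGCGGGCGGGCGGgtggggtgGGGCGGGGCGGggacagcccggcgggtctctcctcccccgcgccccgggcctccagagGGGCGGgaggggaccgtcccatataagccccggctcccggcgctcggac
VIM: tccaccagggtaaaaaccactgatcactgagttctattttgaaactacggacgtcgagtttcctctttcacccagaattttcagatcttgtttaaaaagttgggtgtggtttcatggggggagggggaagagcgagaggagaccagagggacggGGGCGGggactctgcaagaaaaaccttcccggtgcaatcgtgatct
SPARC: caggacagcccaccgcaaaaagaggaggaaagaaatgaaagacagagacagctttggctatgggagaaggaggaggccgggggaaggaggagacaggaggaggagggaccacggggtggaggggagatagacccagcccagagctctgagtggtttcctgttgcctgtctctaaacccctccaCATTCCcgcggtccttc
ACTA2: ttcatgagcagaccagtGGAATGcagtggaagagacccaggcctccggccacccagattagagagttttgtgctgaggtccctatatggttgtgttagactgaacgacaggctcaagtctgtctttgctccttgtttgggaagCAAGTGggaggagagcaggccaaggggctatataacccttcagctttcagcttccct

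Motifs were searched on both strands in the 250 bases before each start. FN1, which rose with CM, held a cAMP response element (TGACGTCA, in 1.65% of 35116 windows of this length) from -183 to -176, and 6 overlapping or neighbouring GC boxes (GGGCGG, in 42.6%). VIM held 1 GC box. SPARC and the ACTA2 start shown, genes which fell with CM, each held 1 TEAD motif (GGAATG, in 11.9%) and 1 E-box (CANNTG, in 61.8%), with the SPARC E-box at -232, before the printed stretch. The other ACTA2 start held neither of them and 2 GC boxes. None of the 7 windows held the AP-1 motif (TGANTCA, in 6.57%), the TATA motif (TATAAA, in 10.7%) or an exact CArG box (in 1.16%), the motif of the factor SRF, which is CC, 6 bases that are A or T, and GG. The ACTA2 start shown held 2 stretches that depart from the CArG box by 1 base, ccctatatgg from -121 and ccttgtttgg from -71, which are known as SRF sites of this promoter. FN1 and VIM held 1 such stretch each, and 15.9% of all windows held at least 1. These are letter matches only.

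Both parts held arrays that stood apart from the rest. Array medians ran from 6.09 to 6.35. The FS arrays of HSF1, in DMSO and in inhibitor, stood apart, at r = 0.860 to 0.961 with the remaining 22 arrays, which reached 0.948 to 0.998 with each other, and their interquartile range was narrow (2.45 against 2.66 to 3.30). The level of ACTB 3′ minus 5′ probe sets, a sign of RNA quality, ran from 1.07 to 3.25 over the H9 UM arrays and from 1.42 to 1.84 over the H9 CM arrays. Of 12 listed pluripotency genes, 10 had a probe set annotated to that gene alone, while POU5F1 and TDGF1 had none and were left out. The mean log2 level of the 10 was 11.59 to 12.31 on FS arrays and 12.46 to 12.66 on FF arrays of the inhibitor part. No 2 arrays held identical values.

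The first comparison asked whether the members differ between culture on feeders and without them. In DMSO, where some members were chosen, the difference is a description. CDH11, a cadherin of mesenchymal cells, had levels of 11.28 (H1), 11.63 (H9) and 12.54 (HSF1) on feeders and of 7.39, 7.15 and 6.82 without. TWIST1, a driver of the mesenchymal state, had 9.68, 8.10 and 8.27 on feeders and 4.97, 5.02 and 4.84 without. No FS value of either gene came near an FF value. The fitted FS minus FF difference in DMSO was 4.70 (SE 0.37) for CDH11, 3.74 (SE 0.40) for TWIST1, 2.96 (SE 0.27) for IGFBP7 and 2.06 (SE 0.24) for VIM. The members with smaller differences in DMSO were LGALS1 at 1.92, FN1 at 1.34, TAGLN at 1.25 and ACTA2 at 1.20, followed by FBLN2 at 0.26 and SPARC at 0.06.

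The arrays with inhibitor did not enter the choice made in DMSO and gave a test. They did enter the choice of LGALS1 and FBLN2, so for these 2 genes the difference is a description here as well. Whether these arrays entered the choice of FN1, TAGLN and ACTA2 is not recorded, so their p-values hold only if they did not. The test is not a second experiment, since FS arrays of the same line deviated from their group means together (r = 0.71 to 0.903 between DMSO and inhibitor) and share 1 estimate of the spread. Each SE and p-value came from the residuals of all 12 arrays. They do not measure how the FS minus FF difference varied over the 3 lines. On lead probe sets its standard deviation over lines was 2.06 for TAGLN, 1.11 for TWIST1 and 1.02 for ACTA2. It was 0.84 for IGFBP7 (1.93 on its second set), 0.45 for CDH11 and 0.24 for VIM. Of the 27 member probe sets, 21 passed the filter on low values. Of the 19 of them that belong to the other 8 genes, 9 were called, all higher on feeders, from 6 genes (limma, adjusted p under 0.05 over all probe sets). Over all 42032 tested probe sets 21.1% were called higher and 26.1% lower. The median difference was 0.67 over the 19 and -0.07 over all. Of the 6 genes, CDH11, TWIST1, IGFBP7 and VIM were chosen by the same difference in DMSO, and TAGLN and ACTA2 are the others. The count and the median are therefore descriptions, and no result about the list as a whole is drawn from them. With arrays shifted to a common median or quantile-normalized, the median over all probe sets was -0.19 or 0.03, so differences of that size depend on the scaling. In these bulk samples, fewer cells of a type and less RNA per cell cannot be told apart. The labels do not say whether MEFs were removed before RNA was taken, so RNA of the mouse cells and RNA of the human cells on FS arrays cannot be told apart.

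CDH11 stood at 11.48, 10.97 and 12.94 on feeders with inhibitor and at 7.90, 7.26 and 8.51 without feeders. The difference was 3.91 (SE 0.37, 15.0-fold, limma adjusted p = 0.000106), and it was above 0 in 3 of 3 lines. TWIST1 stood at 10.46, 8.16 and 8.5 against 5.13, 4.05 and 5.38. Its difference of 4.19 (SE 0.40, 18.2-fold, limma adjusted p = 0.000108) was the largest of the members, with 3 of 3 lines above 0. Without feeders the TWIST1 probe set lay below the array medians on every array of both parts, and on feeders H1 was the highest line, in DMSO and in inhibitor.

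IGFBP7, a secreted protein that binds insulin-like growth factors, had 12.18, 10.68 and 10.94 on feeders and 7.97, 7.37 and 8.41 without. The difference was 3.35 (SE 0.27, 10.2-fold, limma adjusted p = 3.1e-05). A second IGFBP7 probe set gave 3.28 (SE 0.53, adjusted p = 0.00209), although HSF1 differed by 1.08 there and H1 by 4.68. VIM, the intermediate filament of mesenchymal cells, had 13.61, 13.48 and 13.78 against 11.04, 10.48 and 11.16. FS and FF values of VIM did not overlap, and their difference was 2.73 (SE 0.24, 6.63-fold, limma adjusted p = 5.78e-05).

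TAGLN, which binds actin filaments, had 13.03, 12.15 and 10.23 on feeders with inhibitor and 9.78, 7.67 and 9.77 without feeders. The groups did not overlap, but HSF1 differed by 0.46 where H1 differed by 3.25 and H9 by 4.48. The difference was 2.73 (SE 0.60, limma adjusted p = 0.0073), and without the line H1 the adjusted p was 0.0726, the highest of 11 alternatives (from 0.000274). Its other 2 probe sets gave 2.90 (SE 0.48, adjusted p = 0.00233) and 1.17 (SE 0.18, adjusted p = 0.00178), the latter with an adjusted p of 0.0576 without H1. ACTA2, the alpha actin of smooth muscle, had 9.70, 7.74 and 8.78 against 7.99, 6.31 and 8.96. These groups overlapped. The ACTA2 difference of 0.99 (SE 0.33, limma adjusted p = 0.0316) came from H1 at 1.71 and H9 at 1.43, with HSF1 at -0.17, and the call was lost in 5 of 11 alternatives.

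FN1 and SPARC did not pass. FN1 differed by 0.60 (SE 0.39, limma adjusted p = 0.202) and SPARC by 0.46 (SE 0.28, adjusted p = 0.175). As a description, LGALS1 differed by 1.10 (SE 0.43), and FBLN2 by -0.46 (SE 0.18), below 0 in 3 of 3 lines. FN1 and SPARC were above 0 in H1 and H9 and below 0 in HSF1, at -0.78 and -0.47. Without the 2 FS arrays of HSF1, 15 of the 19 probe sets of the other 8 genes were called higher, with each of the 8 among them. Over all probe sets 16.5% were then called higher and 27.7% lower. This count, too, includes the genes chosen by their difference in DMSO. FN1 was then 1.16 (limma adjusted p = 0.00521) and SPARC 0.89 (adjusted p = 0.000776), with LGALS1 at 1.5 and FBLN2 at -0.51. The genes that had passed with all arrays kept their calls, with CDH11 at 3.42, TWIST1 at 4.56, IGFBP7 at 3.61, VIM at 2.68, TAGLN at 3.68 and ACTA2 at 1.34.

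**Figure D2:**
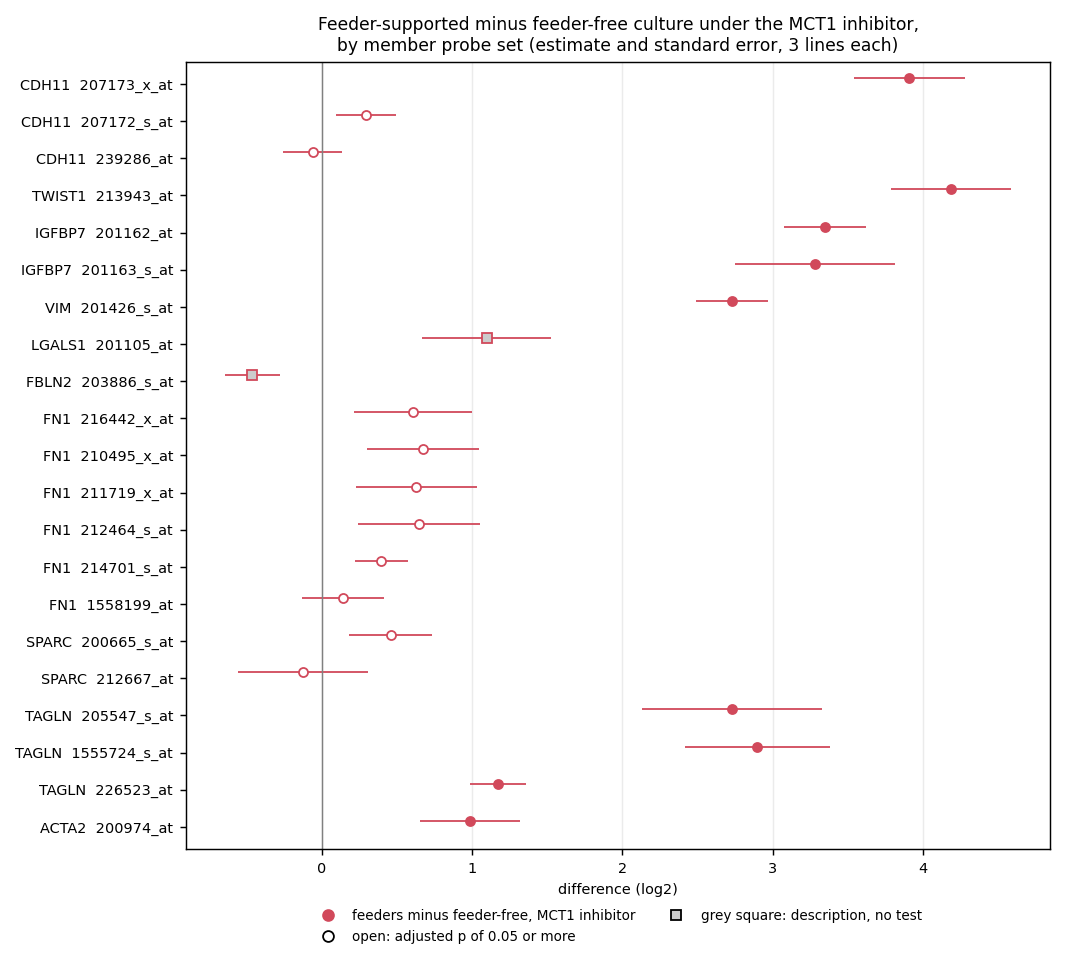
The x axis is the feeder-supported minus feeder-free difference (log2) under the inhibitor for each member probe set that was tested (y axis), with its standard error; filled points passed the limma threshold, and grey squares (LGALS1 and FBLN2) carry no test. CDH11 has 1 probe set at 3.91 and another at 0.29.

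Probe sets of a gene did not always give the same size of difference. The lead CDH11 probe set differed by 3.91 with inhibitor, while the next brightest of the same gene had 7.04, 7.20 and 7.40 on feeders and 6.95, 6.74 and 7.07 without, a difference of 0.29 (SE 0.20, limma adjusted p = 0.222). In DMSO, too, it differed by 0.67 where the lead set differed by 4.70. Of its other sets, one differed by -0.06. The other, too dim to be tested, had 3.21, 4.11 and 3.13 on feeders with inhibitor and 4.54, 3.39 and 5.62 without feeders. It was lower on feeders in H1 and HSF1 and higher in H9. The 4 bright FN1 probe sets gave 0.60 to 0.67, and the 2 dimmer tested ones 0.39 and 0.14. The 2 SPARC sets gave 0.46 and -0.13, and the second was at 0.59 without the FS arrays of HSF1 (limma adjusted p = 0.0352). The 6 member probe sets that were not tested in the inhibitor part belong to VIM, IGFBP7, FN1, CDH11 and ACTA2, and 5 of them never exceeded 4.81.

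Other genes of the same kind were counted on their lead probe set, with 19.5% of all genes' lead sets called higher on feeders with inhibitor and 27.9% lower. The lists were chosen with earlier results of these data known, so their counts are descriptions. Of 8 further transcription factors of the mesenchymal change, 3 were higher: ZEB1 at 0.92 (SE 0.16, limma adjusted p = 0.00251), FOXC2 at 1.65 and TCF4 at 0.60. Of 30 fibroblast surface and matrix genes, 9 were higher and 5 lower. LOX, which cross-links collagen, was higher by 1.57, DCN, the matrix proteoglycan decorin, by 1.47, and FAP, a fibroblast surface protease, by 1.04. TGFBI was lower at -1.91, LOXL2 at -1.39 and MFAP2 at -0.82. The mean level over the 31 listed fibroblast genes was 7.60 to 8.47 on FS arrays and 7.49 to 7.88 on FF arrays, and MGP was the dimmest, with group means of 2.54 to 3.37 over the 8 groups.

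Of 18 contractile genes and targets of the factor SRF, 8 were higher and 1 was lower. After quantile normalization 13 were higher, where 13.9% of all lead sets were, and 4 after a shift of each array to the same median, where 15.2% of all were, with 1 lower in both. ACTG2, the gamma actin of smooth muscle, was higher by 2.99 (SE 0.30, limma adjusted p = 0.000136), the SRF partner MYOCD by 1.76 and TPM2 by 1.18, while MYLK, the myosin light chain kinase, was lower at -2.14. Of 26 family relatives of the members, 8 were higher and 7 lower, with ACTA1 at 3.54 and IGFBP5 at 1.04 against SPOCK1 at -1.82, EFEMP1 at -1.67 and SPARCL1 at -1.06. Actins are close to each other in sequence, and how far their probe sets share signal was not tested. Among 14 epithelial genes 4 were lower, CDH3, CLDN6 and ESRP1 among them, a share near the 27.9% of all lead sets that were lower. Of 10 pluripotency genes 8 were lower (5 after quantile normalization). The epithelial counts were 1 lower after quantile normalization, where 13.0% of all lead sets were lower. They were 5 higher and 3 lower without the FS arrays of HSF1, where 16.1% of all lead sets were higher and 30.0% lower. Some markers of other cell types were higher on feeders as well. Of 10 tested, 5 were called higher and 0 lower (3 of 9 higher after quantile normalization), with TUBB3 at 0.53, PECAM1 at 0.85 and MYOD1 at 0.67. The neuron marker STMN2 and the endothelial marker TEK had lower group means on feeders with inhibitor, at 7.62 against 8.26 and 6.35 against 6.68. The mean level of the list was 6.80 to 7.24 on FS arrays and 6.47 to 6.78 on FF arrays. The part of either list in the members' differences was not tested.

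The second comparison, inhibitor against DMSO, chose LGALS1 and FBLN2 and carries no test. LGALS1 encodes galectin-1, a secreted lectin that binds galactosides on cell surfaces and matrix. In FF cells its level was 7.74, 7.46 and 7.11 in DMSO and 9.79, 9.67 and 9.83 with inhibitor. On feeders it was 10.94, 8.30 and 8.83 in DMSO and 11.92, 10.74 and 9.92 with inhibitor. All 3 lines were higher with inhibitor in both systems, by 2.33 on average without feeders (SE 0.43) and 1.5 on feeders (SE 0.43). With inhibitor the FF cultures of the 3 lines lay within 0.16 of each other, whereas the FS cultures spread from 9.92 to 11.92. LGALS1 stood lowest of all 8 groups in FF DMSO, and at 8.04 to 8.99 over the medium part.

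FBLN2, the matrix glycoprotein fibulin-2, had 7.26, 7.0 and 7.15 in FF DMSO and 8.38, 8.42 and 8.09 in FF inhibitor. The values on feeders were 7.47, 7.30 and 7.42 in DMSO and 7.80, 7.87 and 7.83 with inhibitor. The inhibitor difference was 1.16 (SE 0.18) without feeders and 0.44 (SE 0.18) with them, and every line was higher in both. FF cells with inhibitor were the only one of 8 groups in which every array was at 8.09 or above, and the highest array of any other group was at 7.87.

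**Figure D3:**
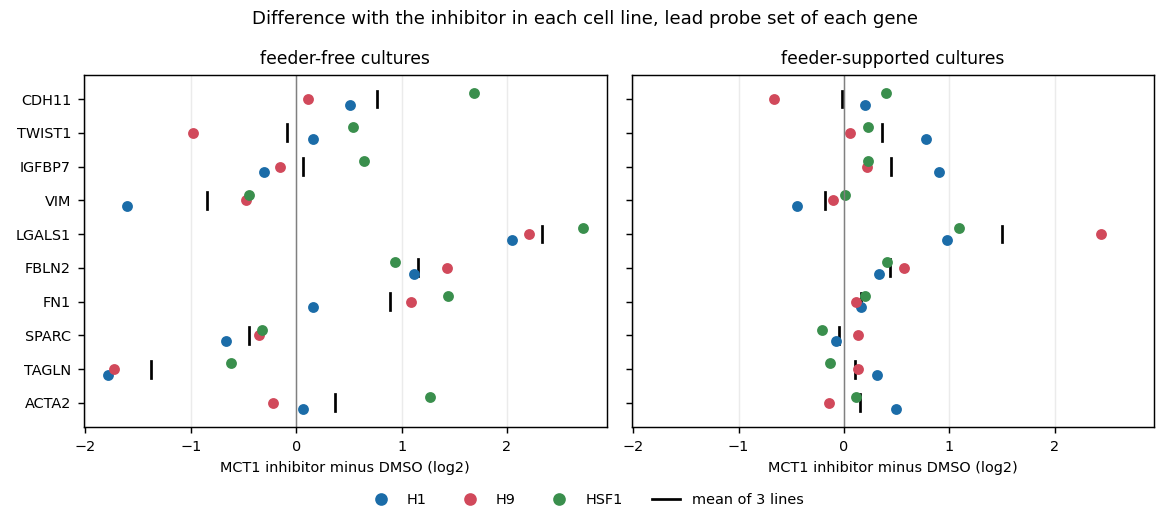
Each point is 1 cell line's inhibitor minus DMSO difference (log2, x axis) on the lead probe set of a gene (y axis), without feeders on the left and on feeders on the right; black bars are means of 3 lines. LGALS1 and FBLN2 lie above 0 in every line on both sides, and VIM, SPARC and TAGLN lie below 0 in every line without feeders.

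Of the other members without feeders, TAGLN lay farthest from 0, at -1.38 on average (SE 0.60), below 0 in every line, followed by FN1 at 0.89 (SE 0.39) and VIM at -0.85 (SE 0.24). By line, FN1 was higher by 0.16 in H1, 1.09 in H9 and 1.44 in HSF1. CDH11 was higher by 0.51, 0.11 and 1.69, and ACTA2 by 0.06, -0.22 and 1.27. HSF1 had the largest of the 3 values for each of these genes. VIM stood lower, at -1.61, -0.48 and -0.45, as did TAGLN at -1.79, -1.73 and -0.62 and SPARC at -0.67, -0.35 and -0.32. On feeders TAGLN differed by 0.31, 0.13 and -0.13, and FN1 by 0.16, 0.11 and 0.20. Whether an inhibitor difference depends on feeders was not tested, since the contrasts that selected members enter that comparison. The wider FS minus FF difference of TAGLN with inhibitor (2.73) than in DMSO (1.25) is given as these 2 values only.

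The third comparison asked what medium conditioned by MEFs does to the members in cells grown without feeders, and no member is recorded as chosen on it. Here 18 of the 27 probe sets, from 9 genes, passed the filter on low values. The second IGFBP7 set passed it only through the 3 H9 CM arrays, so it had to differ there, and it is described with no test. TWIST1 was not among them, as its probe set reached 5.06 at most over the 12 arrays. In H9, 10 of the other 17 were called, 7 higher and 3 lower, from 6 genes. Over all 39849 tested probe sets 2.64% were called higher and 7.5% lower in H9. The median difference was 0.38 over the 17 and 0.01 over all. In HSF1, 7 of 17 were called, 5 higher and 2 lower, from 4 genes, where 4.81% of all were called higher and 6.56% lower, and the medians were 0.15 and 0.02. Probe sets of 1 gene are not independent: 4 of the calls in each line belong to FN1.

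IGFBP7 had the largest rise of the members in H9. Its lead probe set was at 7.41, 7.17 and 7.47 in UM and at 8.43, 8.23 and 8.29 in CM, so that all CM arrays lay above all UM arrays. The difference was 0.96 (SE 0.10, limma adjusted p = 3e-05). In HSF1 the lead set was at 7.40, 7.21 and 7.38 in UM and 7.58, 7.63 and 7.51 in CM, a difference of 0.24 (SE 0.10, limma adjusted p = 0.123) that did not pass. The effect in HSF1 minus that in H9 was -0.72 on the lead set (SE 0.13, limma adjusted p = 0.0106). This test of the difference itself called 5 of the 17 member probe sets and 4.56% of all, and 1 to 7 of the 17 when 1 array was left out. The second probe set stood at 4.12, 4.39 and 4.65 in H9 UM and at 6.38, 6.84 and 6.55 in H9 CM, and at 3.59, 4.02 and 3.98 in HSF1 UM and 4.57, 4.76 and 4.59 in HSF1 CM. Its values outside H9 CM all lay under the filter of log2 5.

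VIM behaved in the opposite way. In H9 it was at 11.38, 11.18 and 11.29 in UM and 11.42, 11.41 and 11.47 in CM, a difference of 0.15 (SE 0.08, limma adjusted p = 0.249). In HSF1 it went from 10.54, 10.68 and 10.66 to 11.35, 11.43 and 11.12, a rise of 0.67 (SE 0.08, 1.59-fold, limma adjusted p = 8.97e-05). In UM every HSF1 array lay below every H9 array, and in CM the HSF1 arrays ran from 11.12 to 11.43. The effects differed by 0.52 (SE 0.11, limma adjusted p = 0.0223), larger in HSF1, a call lost in 4 of 20 alternatives.

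FN1, the fibronectin of the extracellular matrix, rose in both lines. Its lead set went from 10.48, 10.44 and 10.58 to 10.95, 10.89 and 10.95 in H9, by 0.43 (SE 0.07, limma adjusted p = 0.00117). In HSF1 it went from 10.22, 10.21 and 10.10 to 11.05, 10.87 and 10.91, by 0.77 (SE 0.07, 1.7-fold, limma adjusted p = 4.07e-06). The 4 bright probe sets agreed within 0.04 in H9, at 0.43 to 0.47, and ran from 0.77 to 0.83 in HSF1. A dimmer set differed by 0.12 and 0.16 and did not pass in either line. The rise was larger in HSF1 on 2 of the 4 bright sets, by 0.35 (limma adjusted p = 0.0472) and 0.33 (adjusted p = 0.0464), and the lead set gave 0.34 (adjusted p = 0.0546). These 2 calls were lost in 13 and 14 of 19 alternatives.

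ACTA2 fell in both lines. It went from 7.49, 7.79 and 7.86 to 6.76, 6.85 and 6.82 in H9, by -0.90 (SE 0.10, limma adjusted p = 1e-04). In HSF1 it went from 8.13, 8.06 and 8.15 to 7.35, 7.43 and 7.14, by -0.81 (SE 0.10, limma adjusted p = 0.00015). The UM and CM arrays did not overlap in either line, and the effects differed by 0.10 (SE 0.15, limma adjusted p = 0.766). SPARC, a matrix-bound protein that binds collagen and calcium, went from 10.95, 11.09 and 11.15 to 10.77, 10.67 and 10.70 in H9, by -0.35 (SE 0.08, limma adjusted p = 0.0121). In HSF1 it went from 10.85, 10.83 and 10.74 to 10.35, 10.53 and 10.23, by -0.44 (SE 0.08, limma adjusted p = 0.00226). Its second probe set fell by 0.41 in H9 (adjusted p = 0.0178) and differed by -0.27 in HSF1 (adjusted p = 0.0985).

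CDH11 was higher with CM in H9, at 7.53, 7.45 and 7.32 against 6.88, 7.09 and 7.14, by 0.40 (SE 0.10, limma adjusted p = 0.0264). In HSF1 it was at 6.54, 6.63 and 6.55 against 6.52, 6.83 and 6.81, a difference of -0.15 (SE 0.10, limma adjusted p = 0.419). The effects differed by -0.54 (SE 0.15, adjusted p = 0.0490), a call that was lost in 14 of 20 alternatives. TAGLN in H9 went from 9.46, 8.80 and 9.19 to 9.37, 9.78 and 9.96, by 0.56 (SE 0.17, limma adjusted p = 0.0478). Its UM and CM arrays overlapped and that call, too, was lost in 14 of 20 alternatives. In HSF1 TAGLN differed by 0.08 (SE 0.17, limma adjusted p = 0.817). LGALS1 and FBLN2 did not pass in either line, at 0.02 and -0.13 in H9 and 0.24 and 0.12 in HSF1.

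RNA quality varied within the H9 UM group. Its ACTB 3′ minus 5′ difference was 3.25 and 2.89 on 2 arrays and 1.07 on the other, against 1.42 to 1.84 in H9 CM. Without the 2 H9 UM arrays of high ACTB 3′ minus 5′ difference, the H9 UM group held 1 array. IGFBP7 was then 0.91 (limma adjusted p = 0.000692), FN1 0.45 (adjusted p = 0.0134) and ACTA2 -0.68 (adjusted p = 0.00796). CDH11 at 0.55 (limma adjusted p = 0.0584), SPARC at -0.24 (adjusted p = 0.323) and TAGLN at 0.24 (adjusted p = 0.660) were no longer called, with 1 UM array left and the spread taken from the other groups.

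**Figure D4:**
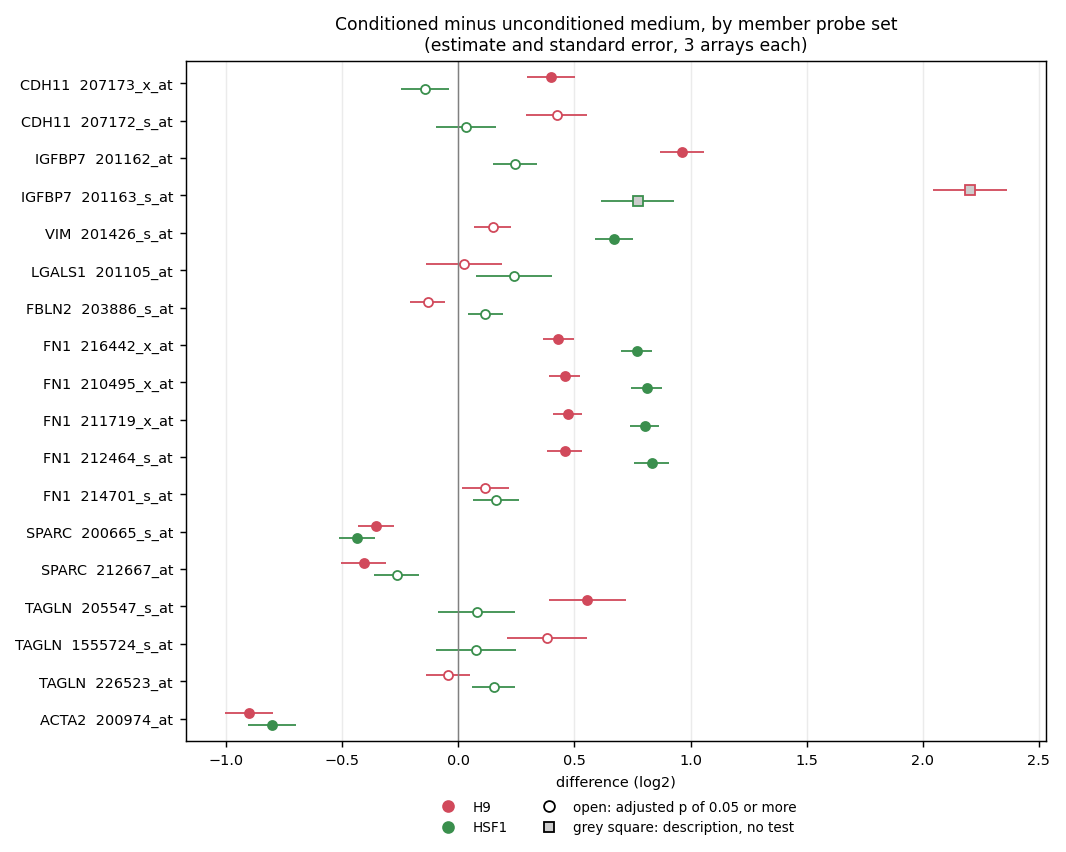
The x axis is the conditioned minus unconditioned medium difference (log2) of each tested member probe set (y axis) in H9 and in HSF1, with its standard error; filled points passed the limma threshold, and grey squares (the second IGFBP7 set) carry no test. IGFBP7 lies farther right in H9, VIM and FN1 farther right in HSF1, and ACTA2 and SPARC left of 0 in both.

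Of genes on the same lists, CDH2, the N-cadherin of mesenchymal and pluripotent cells, rose with CM in both lines. Its rise was 0.61 in H9 (SE 0.08, limma adjusted p = 0.00042) and 0.80 in HSF1 (SE 0.08, adjusted p = 2.03e-05). SNAI2, a transcription factor that represses E-cadherin, fell by 0.81 and 0.98. The backgrounds over lead sets were 2.34% higher and 9.8% lower in H9, and 6.7% higher and 7.91% lower in HSF1. Of 26 fibroblast genes 2 rose and 5 fell in H9, with FBN1 at -0.43 and THBS1 at -0.57, and 2 rose and 1 fell in HSF1, THY1 at -1.48. Of 18 contractile and SRF target genes 2 fell in H9, and 5 rose and 3 fell in HSF1. CCN2, a matricellular SRF and YAP target, rose by 1.16 there (SE 0.08, limma adjusted p = 3.38e-07) and CCN1 by 0.61, whereas ACTG2, a near relative of ACTA2, was at -0.39.

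Among 26 family relatives 1 rose and 3 fell in H9, and 4 rose and 7 fell in HSF1. SPARCL1, the nearest relative of SPARC, fell in both lines as SPARC did, by 0.80 (SE 0.09, limma adjusted p = 6.1e-05) and 1.25 (SE 0.09, adjusted p = 4.53e-07). EFEMP1, a fibulin like FBLN2, fell by 0.46 and 0.73, while ACTA1 rose in H9 by 1.02. The keratins KRT18 and KRT8 fell in HSF1 by 0.75 and 0.55, and 2 of 14 epithelial genes rose there. Pluripotency genes were 3 higher in H9, SOX2, NANOG and TERF1, and 2 higher and 2 lower in HSF1. Markers of other cell types held 0 calls of 9 by limma in either line, with 1 in H9 and 2 in HSF1 at an unadjusted p under 0.05.

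Over all 8 groups, the members fell into different orders of level. The mean of CDH11 ran over 5.24 log2 units, TWIST1 over 4.48, IGFBP7 over 3.94, LGALS1 over 3.43, VIM over 3.17, TAGLN over 2.73 and FN1 over 2.15. ACTA2 ran over 1.93, FBLN2 over 1.16 and SPARC over 0.93. For CDH11, TWIST1, IGFBP7 and VIM both FS groups stood above all others, at a gap of 3.91, 3.74, 2.50 and 1.88 to the next group mean, and the FS groups overlapped each other. IGFBP7 in H9 CM came next after the FS groups, overlapping FF inhibitor. For TAGLN each group overlapped its neighbour in the order. LGALS1 and FBLN2 had FF inhibitor and FS inhibitor as their highest groups, in opposite order, and both were lowest in FF DMSO.

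The genes most like each member were found by the root mean square distance between centred profiles of 8 group means, over 19774 other genes, as a description. The profiles share arrays and the step between FS and other groups. CDH11 was closest to TSHZ1 (0.44) and ZFPM2 (0.45), and TWIST1 to ATP6V0D2 (0.16) and NR4A2 (0.17). IGFBP7 was closest to CAV2 (0.24) and MEIS1 (0.28), and VIM to the collagen genes COL12A1 (0.26) and COL8A1 (0.28). LGALS1 was closest to PHLDA2 (0.38) and WLS (0.44), TAGLN to H2BC6 (0.32) and HOXD10 (0.37), and FN1 to the near-identical pair ANXA2P2 (0.21) and ANXA2 (0.22), whose probe sets can share signal. Among the members, TWIST1 ranked 7th for CDH11 and FN1 34th for LGALS1. TAGLN and VIM ranked 32nd for each other.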

How the data were processed

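Total RNA was labelled with biotin and hybridised to 24 arrays, per the labels' protocols. The deposited table holds log2 values of 54675 probe sets, which the authors made with RMA, per the submitters' processing notes. RMA corrects background, equalises arrays and summarises probes. Neither its version nor the set of arrays it was run on is given in the sources used here. The number of arrays limits the precision.

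Groups came from the sample labels. The platform annotation named the probe sets: 41097 carried 1 symbol, 1801 several and 11777 none. Control probe sets were left out, and a probe set was tested in a part if 3 or more of its 12 arrays exceeded log2 5. Probe sets that 1 group alone carried past this filter, and members known to be chosen on the arrays of a comparison, are described there without a test. The model was limma's (version 3.58.1, R 4.3.3; lmFit, eBayes with trend), with 12 arrays sharing 1 spread and Benjamini-Hochberg adjustment over all probe sets at 0.05. The inhibitor part had the cell line as a block, since its arrays are paired by line. Deviations of the FS and FF arrays of a line with inhibitor correlated at 0.41 in H1, 0.006 in H9 and 0.077 in HSF1. In the medium part, deviations of arrays with the same number correlated at -0.318 to 0.110, so no block was used there, and p-values measure the spread between replicates of a line. The fit was tested on simulated data.

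The members and lists were chosen with earlier results of these data known. A gene's lead probe set has the highest mean over 24 arrays. Named from each list were up to 3 genes per comparison and direction with the smallest p past the threshold, and for members spanning at least 2 log2 units the 2 most alike genes. SPARCL1, EFEMP1 and ACTG2 are also named as family relatives. Promoters came from RefSeq (GRCh38.p14), for 5 members. Listed genes without a probe set of their own were not analysed here. Alternatives are given in the closing section.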

Additional observations from a re-analysis of the deposited data

Results flagged for a closer look

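The effect of conditioned medium differed between the lines H9 and HSF1 by limma's test of the difference (HSF1 minus H9) on 5 of 17 member probe sets, from 4 genes. Over all tested probe sets 4.56% were called, and 2 of the 5 belong to FN1. The member count was 1 to 7 when 1 array was left out. IGFBP7 differed by -0.72 on its lead probe set, with the larger rise in H9. Its second set is at -1.43, but passed the filter on low values only through the 3 H9 CM arrays, so this value is a description with no test. CDH11 differed by -0.54, with H9 higher by 0.40 and HSF1 at -0.15. VIM differed by 0.52, with the larger rise in HSF1. FN1 differed by 0.35 and 0.33 on 2 of its bright probe sets, again with the larger rise in HSF1. The lead IGFBP7 set kept its call in the 20 alternatives run on it. VIM lost its call in 4 of 20, CDH11 in 14 of 20, and the FN1 sets in 13 and 14 of 19. The ACTB 3′ minus 5′ difference varied more over the H9 UM arrays (1.07 to 3.25) than over the HSF1 UM arrays (1.52 to 1.63), and without the 2 H9 arrays of high difference the values were -0.66 for the lead IGFBP7 set, 0.63 for VIM and -0.70 for CDH11.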

How the results depend on the processing

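No member probe set that had passed the test changed its direction in the alternatives run on it. The second SPARC set on feeders with inhibitor, at -0.13 and not called, was 0.59 and called (adjusted p = 0.0352) without both FS arrays of HSF1. The counts that follow include the probe sets described with no test in the report, and those of genes chosen by their difference in DMSO. On feeders with inhibitor, 9 member probe sets were called. Leaving out 1 line at a time gave 6 to 16, with 16 without HSF1, and leaving out both FS arrays of HSF1 gave 17. Without the line as a block the count was 8, and quantile normalization gave 11. With CM in H9 the count of 11 fell to 6 of 9 with 1 probe set per gene, to 7 without the 2 H9 UM arrays of high ACTB difference, an alternative chosen after seeing the data. It was 7 to 13 when 1 array was left out, with 7 without the second H9 CM array. In HSF1 the count of 8 was 4 of 9 with 1 probe set per gene and 7 to 9 when 1 array was left out. The difference between lines was called on 6 probe sets, on 3 with no filter on low values, on 3 without those 2 H9 UM arrays, and on 1 to 8 when 1 array was left out. It was on 1 to 3 without any one of the H9 CM or HSF1 UM arrays, the third H9 UM array, or the first or second HSF1 CM array. With the replicate number as a block, which did not pair the samples, the counts were 9 in H9, 8 in HSF1 and 2 for the difference (the IGFBP7 sets). The cause of these changes was not tested. Single calls that were lost in some alternatives were TAGLN on feeders with inhibitor (lead set up to 0.0726 and the third up to 0.0576, both without H1), TAGLN in H9 (adjusted p 0.00598 to 0.660), SPARC in H9 (0.00228 to 0.323, and its second set up to 0.448), CDH11 in H9 (0.0130 to 0.0845), the CDH11, VIM and 2 FN1 differences (up to 0.128, 0.0796, 0.119 and 0.136), and ACTA2 on feeders with inhibitor (0.00158 to 0.278). Over their alternatives, the adjusted p on feeders with inhibitor ran from 0.00457 to 0.693 for FN1 and 0.000776 to 0.743 for SPARC. With CM in H9 it stayed at or under 0.000916 for IGFBP7, 0.0134 for FN1 and 0.00796 for ACTA2. Over all tested probe sets, 19824 were called on feeders with inhibitor, 11797 after quantile normalization, 9404 without the line block, 2278 with the ACTB difference as a covariate, and 2954 without H1 or 11777 without H9. With CM in H9 4039 were called, 2254 with the replicate block, 1793 with the ACTB covariate, 716 without the 2 H9 UM arrays, and 1727 to 10207 when 1 array was left out. In HSF1 4529 were called, 7148 without those 2 arrays and down to 2362 when 1 array was left out. The difference between lines was called on 1819, on 773 with the replicate block, 921 with the covariate, 715 without the 2 arrays, and 451 to 5879 when 1 array was left out.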
